A study of Homo sapiens with 4 samples.

Results

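The members described here were the 240 protein-coding genes of chromosome 19 whose symbol is ZNF followed by digits, of 19821 protein-coding genes on chromosomes 1 to 22 and X. They were chosen by name and position in the RefSeq annotation of GRCh38.p14, whose coordinates are those of the hg38 build of the deposited peaks. Members less than 500 kb apart were taken as 1 cluster, which gave 20 clusters, 8 of them single genes. Peaks of the histone mark H2AK119ub were counted when they touched a gene or the 10 kb beyond either end, and 266 knockdown and 260 wild-type peaks did so. These were peaks of chromatin immunoprecipitation libraries from H1, an established line of human embryonic stem cells kept in mTESR1 medium. In the knockdown group, 1 library, YTHDF1 was targeted with a short hairpin RNA. The wild-type group, also 1 library, was untreated H1. Whether the knockdown cells were a pool or a clone is not stated in the labels. Each group also had an input library, which was not used here. No library with a control hairpin was analysed here, so the loss of YTHDF1 cannot be told apart from other effects of the hairpin or its delivery. With 1 library per group there was no replicate, so none of the differences could be tested or held against a spread between samples. The lists held 34390 knockdown and 32791 wild-type peaks, and their covered length, the number of bases inside peaks, differed by -13.7% of the wild-type value. They held no read counts, so the depth of both libraries is unknown, and neither the knockdown nor the stem cell identity could be checked from them.

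Most ZNF genes of chromosome 19 arose by tandem duplication and encode proteins with arrays of C2H2 zinc fingers, each of which contacts a few bases of DNA. Many also carry a KRAB domain, which recruits the corepressor TRIM28 and through it the H3K9 methyltransferase SETDB1, and many of these proteins silence transposable elements. H2AK119ub is a different repressive mark, laid down by Polycomb repressive complex 1 (PRC1), of which a variant form is brought to unmethylated CpG dinucleotides by its subunit KDM2B. YTHDF1 is a reader of m6A, a methyl mark on messenger RNA, and acts in the cytoplasm. The series asked how its knockdown bears on H2AK119ub in embryonic stem cells.

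A RefSeq promoter of 300 bases, from 250 before the gene start to 50 after it, was given for 210 of the 240 members, and with it the strand and the 5′ end. These promoters held from 2 to 49 CpG. The 4 printed here span that range and the ways in which the 5′ end was marked, where marked means that a peak lay within 2 kb of it. They run 5′ to 3′ along the gene, in GRCh38.p14, with each CpG in capitals. ZNF543 (chr19:57320222-57320521, plus strand, 27 CpG) was the member marked in knockdown cells alone with the longest gain in covered length. ZNF808 (chr19:52527418-52527717, plus strand, 29 CpG) was the one marked in wild-type cells alone with the longest loss. ZNF541 (chr19:47573099-47573398, minus strand, 49 CpG) had the most CpG of the members marked in both lists. ZNF404 (chr19:43883915-43884214, minus strand, 2 CpG) had the fewest of those marked in neither.
ZNF543: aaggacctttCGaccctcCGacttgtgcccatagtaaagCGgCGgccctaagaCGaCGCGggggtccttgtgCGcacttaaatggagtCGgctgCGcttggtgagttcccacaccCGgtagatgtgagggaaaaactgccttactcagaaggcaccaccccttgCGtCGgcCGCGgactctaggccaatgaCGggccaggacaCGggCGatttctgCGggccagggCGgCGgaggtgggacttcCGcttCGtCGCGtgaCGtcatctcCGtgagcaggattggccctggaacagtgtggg
ZNF808: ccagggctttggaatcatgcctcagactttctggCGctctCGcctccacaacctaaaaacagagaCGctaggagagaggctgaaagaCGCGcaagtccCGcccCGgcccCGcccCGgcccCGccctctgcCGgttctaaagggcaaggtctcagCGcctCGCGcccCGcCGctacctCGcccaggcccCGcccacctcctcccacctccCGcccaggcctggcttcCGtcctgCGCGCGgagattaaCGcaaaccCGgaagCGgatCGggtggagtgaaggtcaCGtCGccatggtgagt
ZNF541: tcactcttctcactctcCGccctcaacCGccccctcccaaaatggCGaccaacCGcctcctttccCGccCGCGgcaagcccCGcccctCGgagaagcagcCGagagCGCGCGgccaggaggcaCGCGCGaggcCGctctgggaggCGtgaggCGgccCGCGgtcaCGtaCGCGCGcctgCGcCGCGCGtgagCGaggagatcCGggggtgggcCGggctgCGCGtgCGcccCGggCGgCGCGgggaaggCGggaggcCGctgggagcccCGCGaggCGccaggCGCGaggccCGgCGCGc
ZNF404: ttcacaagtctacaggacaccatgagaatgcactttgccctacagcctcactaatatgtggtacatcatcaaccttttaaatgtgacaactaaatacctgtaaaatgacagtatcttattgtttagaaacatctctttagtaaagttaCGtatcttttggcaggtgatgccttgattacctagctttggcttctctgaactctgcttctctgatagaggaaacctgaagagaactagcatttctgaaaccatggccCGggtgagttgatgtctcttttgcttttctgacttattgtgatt

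The first comparison asked where along these genes the mark lay. In both lists members were inside a peak more often at the 5′ end than at the 3′ end, but most peaks lay elsewhere: 45.5% of the knockdown and 45.8% of the wild-type peaks in the windows were at a member's 5′ end. The 5′ end was marked in knockdown cells at 123 of 210 members (58.6%) and in wild-type cells at 56.7%. The order turned in the upper 50% of each list by score (33.3% and 34.8%) and with peaks under 2 kb left out (54.3% and 55.2%). It was kept within 5 kb (61.4% and 57.6%). With the wild-type list cut by score to the knockdown's covered length the shares were 58.6% and 51.4%. That cut removed wild-type peaks only, so the order could not turn and nothing is read from it. Among the 15812 protein-coding genes with a promoter entry, 67.3% were marked in knockdown cells and 66.6% in wild-type cells. The 3′ end had a peak within 2 kb at 38 members (18.1%) in knockdown cells and 52 (24.8%) in wild-type cells, against 30.2% and 33.1% of all such genes. Both values were lower than those of the other 975 genes of the chromosome with a promoter entry, of which 81.4% were marked at the 5′ end and 65.5% at the 3′ end in knockdown cells, and 83.0% and 74.2% in wild-type cells. At the exact 5′ base 53.8% of members lay inside a knockdown peak and 50.5% inside a wild-type peak. At 5 kb into the gene the shares were 5.71% in knockdown cells and 8.10% in wild-type cells. At the 3′ base they were 10.5% and 14.8%. Of the 30 members without a promoter entry, either end was marked at 20 in knockdown cells and 16 in wild-type cells, with 5 marked in knockdown cells alone and 1 in wild-type cells alone. Marking at either end was not counted over all protein-coding genes, so nothing particular to the members is read from these counts.

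**Figure D1:**
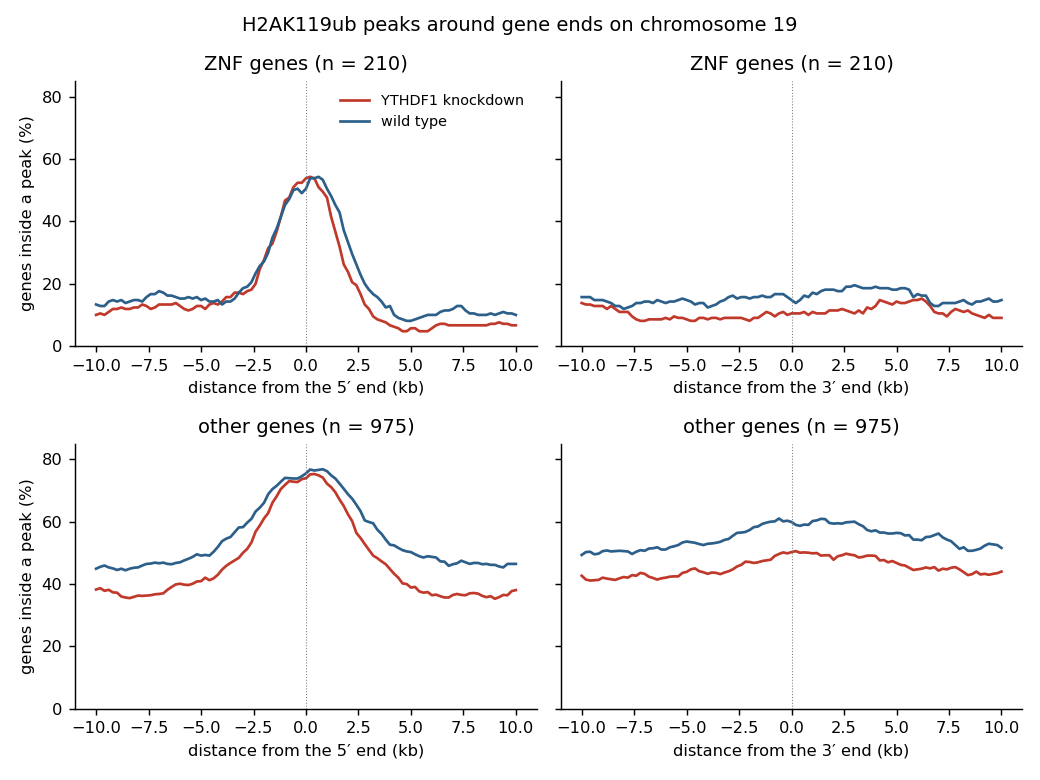
Share of genes (y axis, percent) that lay inside an H2AK119ub peak at each distance from the 5′ end (left panels) and 3′ end (right panels), in kb, with negative distances upstream. Lines stand for the YTHDF1 knockdown (red) and wild-type (blue) lists, for 210 ZNF genes above and 975 other chromosome 19 genes below. The ZNF genes reach 53.8% in knockdown cells and 50.5% in wild-type cells at the 5′ end and 10.5% and 14.8% at the 3′ end.

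The shorter covered length of the knockdown lay mostly outside the 5′ ends. Over the union of all 240 gene windows, which spanned 10.2 Mb, knockdown peaks covered 1.01 Mb (9.91%) and wild-type peaks 1.28 Mb (12.5%), a difference of -20.9%. The same difference was -19.2% over the windows of the other protein-coding genes of chromosome 19, of which the peaks covered 33.6% in knockdown cells and 41.5% in wild-type cells. Per gene, the mean covered length was 5.22 kb in knockdown cells and 6.66 kb in wild-type cells for the members, 8.34 kb and 9.69 kb for the 237 ZNF genes of other chromosomes, and 16.3 kb and 19.9 kb for the 1170 other genes of chromosome 19. With the wild-type list restricted by score to the total covered length of the knockdown list, the difference over the ZNF windows was -9.57%. At the 92 members with no other protein-coding gene in the window it was -7.19%.

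Within 2 kb of the 5′ ends of the 210 members, 43.6% of bases lay in knockdown peaks and 46% in wild-type peaks, a difference of -5.13% that turned positive with lists of equal length (3.65%) and at the 92 members with no other protein-coding gene in the window (21.3%). Within 2 kb of the 3′ ends the shares were 8.15% in knockdown cells and 14.3% in wild-type cells, a difference of -42.9%, and of -33.4% with lists of equal length. The rest of the gene bodies had 4.33% and 6.42% (-32.5%), and the outer flanks 11.8% and 14.9% (-20.9%). With lists of equal length the difference was -16.3% for the bodies and -11.4% for the flanks. Of the length by which the knockdown covered less of these 4 regions, 7.60% lay at the 5′ ends, 19.6% at the 3′ ends, 43.7% in the bodies and 29.1% in the flanks. These regions spanned 812, 805, 5271 and 2353 kb respectively, and wild-type peaks covered 373, 115, 339 and 351 kb of them. The other chromosome 19 genes had the same order of 5′ against 3′ regions, with 69.8% of bases in knockdown and 72.7% in wild-type peaks at the 5′ ends (-3.99%) and 41.7% and 53.4% at the 3′ ends (-22.0%). The ZNF genes of other chromosomes, 195 with a promoter entry, had 58.2% and 56.9% at the 5′ ends (2.43%) and 14.9% and 18.4% at the 3′ ends (-19.2%). Whether the 3′ difference of the chromosome 19 members is larger than that of these groups was not tested.

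**Figure D2:**
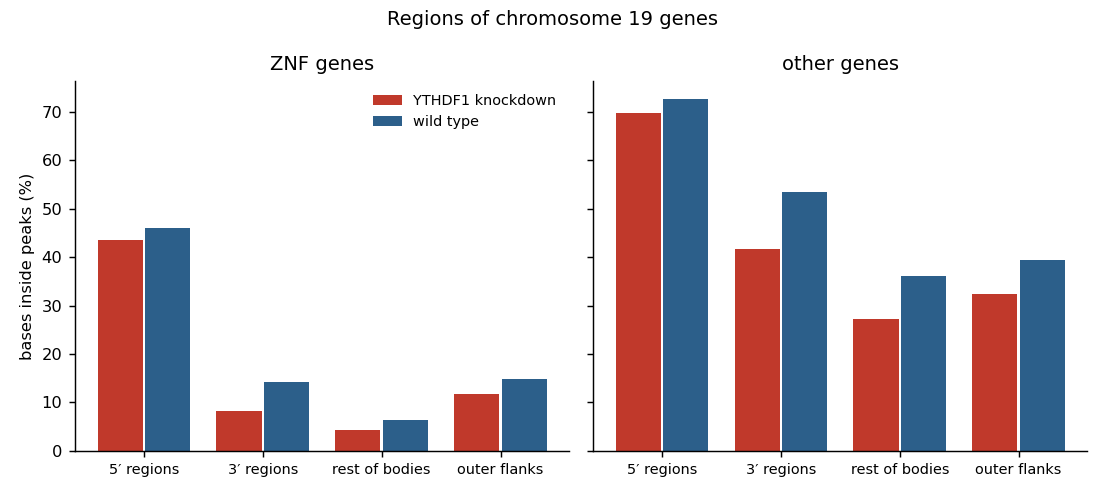
Percent of bases inside peaks (y axis) within 2 kb of the 5′ ends, within 2 kb of the 3′ ends, in the rest of the gene bodies and in the outer flanks up to 10 kb, for the knockdown (red, left bars) and wild type (blue, right bars). For ZNF genes the bars of the 5′ regions nearly match (43.6% and 46%, an order that turns round with lists of equal length and at the 92 members with no other gene in the window), while those of the 3′ regions stand at 8.15% and 14.3%.

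The 3′ end was marked in knockdown cells alone at 8 members (3.81%, background 3.98%), in wild-type cells alone at 22 (10.5%, background 6.91%) and in both lists at 30 (14.3%, background 26.2%). A peak at the 5′ end without one at the 3′ end was found at 94 members in knockdown cells and 75 in wild-type cells, the reverse at 9 and 8. This combination was not counted over all protein-coding genes, so nothing particular to the members is read from it. ZNF274, which is itself known to bind the 3′ ends of ZNF genes and to recruit SETDB1 there, was marked at the 5′ end alone in both lists, by a peak of 3.4 kb in knockdown cells and 5.6 kb in wild-type cells.

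The second comparison set the 2 lists side by side at each 5′ end. Both lists marked 99 members (47.1%, against 61.7% of all genes with a promoter entry). The knockdown alone marked 24 (11.4%, background 5.6%) and the wild type alone 20 (9.52%, background 4.9%). This order turned in the upper 50% of each list by score, with 20 marked in knockdown cells alone and 23 in wild-type cells alone, and with peaks under 2 kb left out, with 21 and 23. It was kept within 5 kb (24 and 16) and at the 5′ base itself (31 and 24). With lists of equal length the counts were 30 and 15, but only wild-type peaks were removed there, so the order could not turn. The ZNF genes of other chromosomes had 11.3% and 5.64%, and the other chromosome 19 genes 2.87% and 4.41%. The peaks that marked members in 1 list alone were narrow and low in score, the authors' own value per peak, which was used only within a list. In the knockdown their median width was 2.6 kb and their median score 10.4, against 3.7 kb and 18.7 for peaks at members marked in both, with a median score of 14.8 over the whole list. In the wild type the values were 3.2 kb and 12.4 for members marked in that list alone, and 4.6 kb and 23 for those marked in both, with 16.5 over the list.

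Among the members marked in knockdown cells alone, 14 of 24 had no wild-type peak anywhere in their window. Such empty windows were not counted over all protein-coding genes, so nothing particular to the members is read from this. ZNF543 had 6.8 kb in a single knockdown peak (57315001 to 57321800) and none in wild-type cells. ZNF730 had 5.0 kb and ZNF613 4.4 kb in knockdown cells, and neither had any in wild-type cells. The peak of ZNF730 (23116001 to 23121000) lay inside the annotated gene span (23075211 to 23147221), where its promoter entry places the 5′ end. ZNF224, which encodes a repressor of the aldolase A gene, had 3.2 kb in knockdown cells and none in wild-type cells. ZNF304, which directs gene silencing at the INK4-ARF locus, likewise had 3.2 kb and none. Its 3.2 kb lay in 2 knockdown peaks, and the one at its 5′ end measured 2.0 kb. ZNF569 and ZNF570 were marked by 1 and the same knockdown peak of 2.6 kb (37466401 to 37469000), so they do not count as separate events. A gain at the 5′ end did not always mean a longer covered length. ZNF816 had 9.2 kb in knockdown cells and 12.2 kb in wild-type cells, although only the knockdown had a peak at its 5′ end.

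Of the members marked in wild-type cells alone, 8 of 20 had no knockdown peak in their window, which was likewise not counted over all protein-coding genes. ZNF616 had none in knockdown cells and 8.0 kb in wild-type cells, and ZNF420 had none and 7.0 kb. ZNF808 (52527668 to 52568753) had 4.6 kb in 2 knockdown peaks and 19.2 kb in 5 wild-type peaks. Its wild-type peak at the 5′ end measured 2.8 kb, and the peaks that the lists shared lay inside the gene and at its 3′ end. ZNF90 had 3.4 kb in knockdown cells and 16.8 kb in wild-type cells, and its only knockdown peak lay near the 3′ end. ZNF93, whose protein binds LINE-1 retrotransposons, had 6.0 kb in knockdown cells and 11.2 kb in wild-type cells. Its wild-type 5′ peak of 6.8 kb (19897801 to 19904600) had no knockdown counterpart. ZNF91, whose protein binds SVA retrotransposons, was marked at the 5′ end in neither list, with no peak in knockdown cells and 5.0 kb inside the gene in wild-type cells.

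Where both lists marked the 5′ end, the peaks there were narrower in knockdown cells at 63 members, wider at 34 and equal at 2. The narrower ones were 63.6% of the members, against 61.9% of all protein-coding genes and 69.5% of the other chromosome 19 genes marked in both lists. Their median width was 4.0 kb in knockdown cells and 4.6 kb in wild-type cells, and the median ratio of knockdown to wild type was 0.800. The ratio was 0.800 for the other chromosome 19 genes too, 0.889 for ZNF genes elsewhere and 0.871 for all protein-coding genes.

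The third comparison asked how the marking differed with the sequence of the promoter and with the neighbourhood of the gene. Members marked in both lists had a median of 23 CpG in the promoter, those marked in knockdown cells alone 19.5, in wild-type cells alone 21 and in neither 16. With 30 CpG or more, 25 of 29 members (86.2%) were marked in knockdown cells and 24 (82.8%) in wild-type cells. With 10 to 19 CpG the shares were 36 of 80 (45.0%) in knockdown cells and 34 (42.5%) in wild-type cells. With 0 to 9 CpG they were 6 of 14 (42.9%) in knockdown cells and 4 (28.6%) in wild-type cells. Over all protein-coding genes the class with 30 CpG or more had 92.0% marked in knockdown cells and 91.9% in wild-type cells, that with 10 to 19 had 68.1% and 65.5%, and that with 0 to 9 had 28.5% and 29.3%. The members were thus below all genes in the upper classes, but in the lowest, of 14 members, they were above in knockdown cells and slightly below in wild-type cells. With 20 to 29 CpG, 64.4% of members were marked in knockdown cells and 65.5% in wild-type cells, against 78.4% and 76.6% of all genes. Promoters with 30 CpG or more made up 13.8% of the members' and 30.2% of all promoters. A CpG reads the same on both strands. The count describes the sequence and says nothing of its methylation in these cells.

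**Figure D3:**
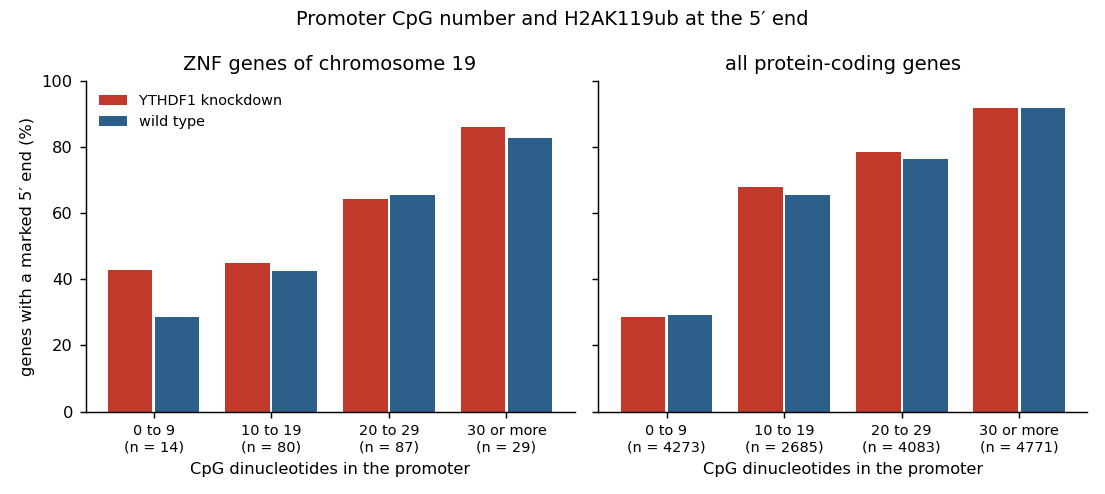
Share of genes with a marked 5′ end (y axis, percent) by the number of CpG in the 300-base promoter (x axis), in knockdown cells (red, left bars) and wild type (blue, right bars), for ZNF genes of chromosome 19 and for all protein-coding genes. Among ZNF genes the share is 86.2% in knockdown cells and 82.8% in wild-type cells with 30 CpG or more, 45.0% and 42.5% with 10 to 19, and 42.9% and 28.6% with 0 to 9.

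The 2 lists stood in a different order at members with and without a neighbour. No other protein-coding gene reached into the window of 92 members, of which 83 had a promoter entry. At these, 41 were marked at the 5′ end in knockdown cells (49.4%) and 32 in wild-type cells (38.6%), with 13 in knockdown cells alone and 4 in wild-type cells alone. Their 5′ regions held 115 kb of knockdown and 95 kb of wild-type peaks, a difference of 21.3%. Among the other 148 members, 127 with a promoter entry, 82 (64.6%) were marked in knockdown cells and 87 (68.5%) in wild-type cells, and the 5′ regions held 239 kb and 278 kb (-14.1%). The 3′ regions had less covered length in knockdown cells in both classes, by -45.9% and -42.2%. The covered lengths of the regions in this split were computed after the data were seen. The split was not made over all protein-coding genes, so whether the order is particular to the members is not known.

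The fourth comparison asked which members and clusters had shorter or longer covered length over the gene and 10 kb on each side. In the knockdown 123 of 240 members (51.2%) had a shorter covered length, 62 (25.8%) a longer one and 55 an equal one, of which 51 had no peak in either list. Over all protein-coding genes 50.4% were shorter and 28.3% longer. With lists of equal length 96 members were shorter and 83 longer. At the 92 members with no other protein-coding gene in the window 27 were shorter and 28 longer. At the other 148 the counts were 96 and 34. The median difference was -0.222 kb for the members, -0.200 kb for all protein-coding genes and -2.4 kb for the other chromosome 19 genes. The members' median covered length was 3.6 kb in knockdown cells and 4.8 kb in wild-type cells. A covered length at least 2-fold and at least 1 kb shorter was found at 46 members (19.2%, background 10.8%), and one as much longer at 28 (11.7%, background 7.32%). At ZNF genes of other chromosomes the shares were 14.3% and 11.0%, and at other chromosome 19 genes, whose median covered length was 15.6 kb in knockdown cells and 19 kb in wild-type cells, they were 8.97% and 2.65%.

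**Figure D4:**
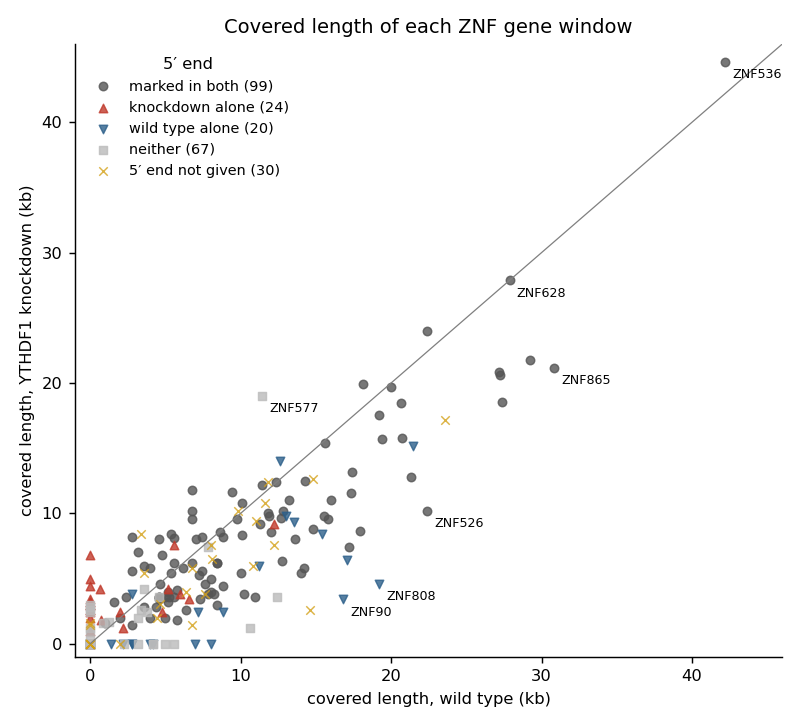
Covered length of each of the 240 gene windows in knockdown cells (y axis, kb) against the wild type (x axis, kb), with symbols by the state of the 5′ end and a line of equal values. More members lie below the line (123) than above it (62), and ZNF536, a gene of 488 kb, has the longest covered length in both lists.

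Covered length was longest at ZNF536 (30225592 to 30713586), which has no other protein-coding gene in its window and encodes a zinc finger protein of the nervous system. It had 44.6 kb in 13 knockdown peaks and 42.2 kb in 9 wild-type peaks. The gene is 488 kb long, and these were 8.78% and 8.31% of its window. Over all member windows the shares were 9.91% and 12.5%. The peak at its 5′ end was narrower in knockdown cells, with 8.0 kb (30222001 to 30230000) against 11.0 kb in wild-type cells (30222001 to 30233000), and the remaining peaks lay inside the gene. Peaks filled the window of ZNF628 in both lists, with 27.9 kb each, in a knockdown peak of 37.4 kb and a wild-type peak of 58.0 kb.

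The 10 largest decreases without overlapping windows began with ZNF808 and ZNF90. ZNF526 had the next one, with 10.2 kb in knockdown cells and 22.4 kb in wild-type cells. Its window also holds the genes DEDD2 and GSK3A. ZNF253, the neighbour of ZNF93, had 2.6 kb in knockdown cells and 14.6 kb in wild-type cells. The wild-type peak of 6.8 kb at the 5′ end of ZNF93 also reached its window. At ZNF865 a single wild-type peak of 40.0 kb, which also took in the 5′ end of ZNF784, met 3 separate knockdown peaks of 6.6 to 10.8 kb, and the covered lengths were 21.2 kb in knockdown cells and 30.8 kb in wild-type cells. ZNF446 had 8.65 kb in knockdown cells and 17.9 kb in wild-type cells, and its 5′ peak was 5.2 kb wide in knockdown cells and 13.2 kb in wild-type cells. ZNF556 and ZNF791 were marked at the 5′ end in neither list. They had 1.2 and 3.6 kb in knockdown cells and 10.6 and 12.4 kb in wild-type cells, in peaks inside the gene or beyond its 3′ end. ZNF428 had 7.4 kb in knockdown cells and 17.2 kb in wild-type cells, although its 5′ peak was the wider one in knockdown cells, with 3.8 kb against 2.6 kb. ZNF837 had 18.6 kb in 5 knockdown peaks and 27.4 kb in 3 wild-type peaks.

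The 10 largest increases were smaller, and ZNF543, ZNF730 and ZNF613, described with the 5′ ends, were among them. ZNF577 had 19 kb in knockdown cells and 11.4 kb in wild-type cells. Its 5′ end was marked in neither list, and its peaks lay inside or before the gene. ZNF677 had 8.2 kb in knockdown cells and 2.8 kb in wild-type cells, with a knockdown peak of 4.2 kb at the 3′ end. ZNF331, an imprinted gene, had 11.8 kb in knockdown cells and 6.77 kb in wild-type cells. ZNF555 was marked by peaks of identical position in both lists, and its gain to 7.0 kb in knockdown cells, against 3.2 kb in wild-type cells, came from a peak of 3.8 kb inside the neighbouring ZNF554, near the 3′ end of that gene. ZNF611 had 8.0 kb in knockdown cells and 4.59 kb in wild-type cells, with a 5′ peak of 5.0 kb against 2.2 kb. ZNF439 had 4.2 kb and 0.686 kb. ZNF793 had 3.4 kb in knockdown cells and none in wild-type cells. Of this, a peak of 1.0 kb marked its own 5′ end, and one of 2.4 kb lay at the 5′ end of the neighbouring ZNF540.

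By cluster, the knockdown covered less in 16 of 20 and more in 3, and ZNF333 had no peak in either list. The 10 clusters of at least 5 members, which hold 228 genes, ranged from 2.49% to 25.1% of bases covered in knockdown cells and from 3.85% to 30.1% in wild-type cells. The lowest was that from ZNF101 to ZNF254 (19668153 to 24129968), whose 37 members include ZNF91 and ZNF93. It had 2.49% in knockdown cells and 3.85% in wild-type cells, and no peak in either list at 19 members. At the 29 members with a promoter entry, 6 were marked in knockdown cells and 5 in wild-type cells. Many members of such clusters are similar in sequence, and the treatment of reads that match several places is not stated in the labels, so low coverage there is uncertain. The part of this in the result was not tested.

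Among the 10, the cluster from ZNF628 to ZNF835, with 16 members near the end of the long arm, was the most densely covered in both lists, with 25.1% in knockdown cells and 30.1% in wild-type cells. The cluster from ZNF264 to ZNF446, with 41 members, had 19% and 24.1%. The 5 members from ZNF554 to ZNF77, near the end of the short arm, had 18.6% and 24.5%. In the cluster from ZNF264 to ZNF446, 30 of 38 members with a promoter entry were marked at the 5′ end in each list, with 4 in knockdown cells alone and 4 in wild-type cells alone. The cluster from ZNF175 to ZNF331, with 39 members, had 11.7% in knockdown cells and 15.0% in wild-type cells, with 21 of 32 5′ ends marked in knockdown cells and 24 in wild-type cells. It held both ZNF577 and ZNF808, which differed in opposite directions. The cluster from ZNF565 to ZNF573, with 24 members, was the only one of the 10 in which the knockdown did not cover less. It had 54.2 kb in knockdown cells and 53.6 kb in wild-type cells, a difference of 1.12%, and 12 of 23 5′ ends were marked in knockdown cells and 9 in wild-type cells. Marked in knockdown cells alone were ZNF540, ZNF569, ZNF570, ZNF793 and ZNF850, and in wild-type cells alone ZNF420 and ZNF875.

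In several clusters the member with the longest covered length had a broad wild-type peak opposite narrower or separate knockdown peaks. ZNF575 had 11.0 kb in knockdown peaks of 5.0 and 6.0 kb, against 16 kb in 1 wild-type peak. ZNF414 had 11.6 kb in 3 knockdown peaks and 17.3 kb of a wild-type peak of 22.8 kb. Only the knockdown peak of 9.0 kb lay opposite that peak, and the others lay outside it. ZNF792 had 5.4 kb in knockdown cells and 10 kb in wild-type cells, with a 5′ peak of 3.2 kb against 8.4 kb. ZNF497 had 20.8 kb in 5 knockdown peaks and 27.2 kb in 2 wild-type peaks. ZNF69 had no such broad peak, as its widest wild-type peak measured 6.8 kb. The lists had 6 peaks each there, and the covered lengths were 21.8 kb in knockdown cells and 29.2 kb in wild-type cells. ZNF554 had nearly equal lengths, 15.4 kb and 15.6 kb, but in 4 knockdown and 2 wild-type peaks. ZNF875 also differed, with 14 kb in 5 knockdown peaks and 12.6 kb in 4 wild-type peaks. The wild-type list alone had a peak at its 5′ end.

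**Figure D5:**
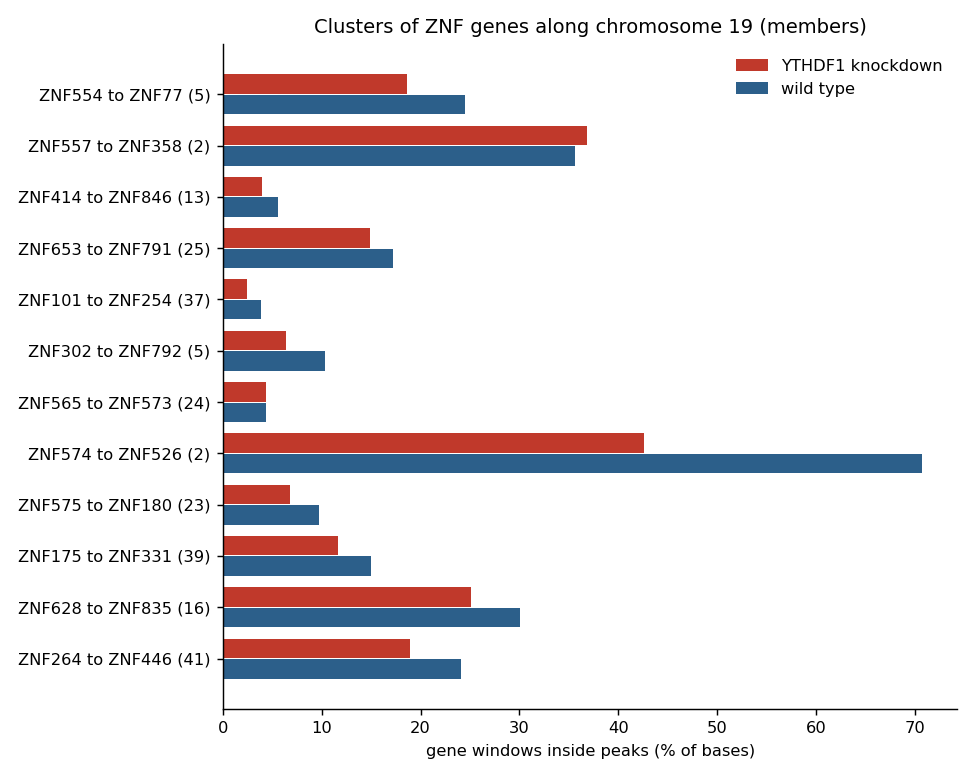
Percent of bases inside peaks (x axis) over the gene windows of each cluster of at least 2 members, from the short-arm end at the top to the long-arm end at the bottom, in knockdown cells (red, upper bars) and wild type (blue, lower bars), with the number of members in brackets. The cluster from ZNF101 to ZNF254 has the lowest values (2.49% and 3.85%), and that from ZNF565 to ZNF573 has nearly equal ones.

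The fifth comparison asked how far the peaks themselves coincided. Of the 266 knockdown peaks in the windows, 199 (74.8%) overlapped the wild-type list by 1 bp or more, and so did 186 of the 260 wild-type peaks (71.5%) with the knockdown list. On chromosome 19 as a whole the shares were 85.7% and 76.1%. Peaks at a member's 5′ end were shared in 80.2% of cases in knockdown cells and 82.4% in wild-type cells, and those inside the gene in 65.1% and 59.3%. Knockdown peaks had a median width of 3.4 kb and wild-type peaks of 4.0 kb. The medians were 4.0 and 5.0 kb on chromosome 19, and 3.6 and 4.4 kb over the whole lists. In 145 cases 1 peak of each list met no further peak, and of these knockdown peaks 92 were narrower, 42 wider and 11 as wide, with a median width ratio of 0.789. More than 1 knockdown peak touched the same wild-type peak 25 times, and the converse was seen 11 times. These cases were not counted over the whole lists, so nothing particular to the members is read from them. The bases common to both lists came to 0.704 Mb, which was 69.7% of the knockdown and 55.1% of the wild-type covered length.

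A list of genes of the cofactors through which KRAB zinc finger proteins silence their targets was also described. Of 17 such genes with a promoter entry, 15 were marked at the 5′ end in knockdown cells and 14 in wild-type cells, where 67.3% and 66.6% of all genes were. ATF7IP, which encodes a partner of SETDB1, was marked in knockdown cells alone, with 4.2 kb against none in wild-type cells. Of all 18 genes, 13 had a shorter and 5 a longer covered length in knockdown cells, where 50.4% of all genes were shorter and 28.3% longer. Nothing particular to the list is read from these counts. TRIM28, which lies beyond the last ZNF cluster, had 14.7 kb in knockdown cells and 21.1 kb in wild-type cells, and SETDB1 7.54 kb and 9.14 kb. UHRF1, a partner of the maintenance DNA methyltransferase, had 14.8 kb in knockdown cells and 25.4 kb in wild-type cells, while DNMT1 itself had 11.6 kb and 5.95 kb. ZFP57, a KRAB zinc finger gene of chromosome 6 that protects imprints, had 14.8 kb in knockdown cells and 6.8 kb in wild-type cells.

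A list of 15 C2H2 genes of chromosome 19 with other names held 1 gene, ZFP112, that the table gives as the member ZNF112. The remaining 14 had a mean covered length of 8.06 kb in knockdown cells and 10.5 kb in wild-type cells (-23.3%), with 7 shorter, 4 longer and 3 without peaks. The difference in the mean of the 240 members was -21.5%. ZFP82, which lies among the members from ZNF565 to ZNF573, had 5.8 kb in knockdown cells and 15.4 kb in wild-type cells, and ZSCAN22, near ZNF497, 17.3 kb and 10.5 kb. PEG3, ZIM2 and ZIM3 had no peak in their windows in either list.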

How the data were processed

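Per the labels, H2AK119ub chromatin immunoprecipitation was done in YTHDF1 knockdown and wild-type H1 cells, with 1 library each. Per the submitters' processing notes, the tools named were MACS2 2.1.0, SICER 1.1, Bowtie2 2.2.5, Trimmomatic 0.35, Picard and SAMtools 1.3.1, on hg38, with no role or order. The deposited values per peak are a position and a score, the authors' own value, of unstated unit, which stops at 1000. Depth is unknown. Peak ends were read as inclusive, since starts are multiples of 200 and ends lie 1 below one.

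Python 3.11.15 with pandas 2.3.3 and NumPy 2.4.6 computed covered lengths and overlaps (at least 1 bp), with functions tested on simulated data. Coordinates are 1-based. 153 protein-coding genes on scaffolds were left out. Gene starts and promoters came from RefSeq, and 42 members start inside the annotated gene span. The 5′ regions took precedence over 3′ regions, gene bodies and flanks. The planned count of fingers and KRAB motifs was not made, as protein sequences were not used here. No test was run, as each group has 1 library.

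Members and gene lists were chosen with earlier results of these data known. Named genes were the 10 largest decreases and 10 largest increases without overlapping windows, the longest of each cluster of at least 5 members, members of counts of 5 or fewer, and ZNF274, ZNF91, ZNF93 and ZNF536. Other members are examples chosen after their values were seen. Alternatives changed the window, the distance that counts as marked, the peaks and members used, the overlap and the cluster gap.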

Additional observations from a re-analysis of the deposited data

How the results depend on the processing

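No paired analysis was possible because each group has 1 H2AK119ub library. A percent difference or a count was called moved when it changed by more than 1.5 times, and a share of peaks when it left the exact 95% binomial interval of the value reported, which covers counting error only. The difference in covered length kept its sign under each alternative tried. It was -9.57% with lists of equal length and -7.19% at the 92 members without another gene in the window. At those 92, 27 members were shorter and 28 longer, 41 were marked at the 5′ end in knockdown cells and 32 in wild-type cells, 13 in knockdown cells alone and 4 in wild-type cells alone. These counts are smaller because fewer members were used, but the order of shorter and longer also changed. In the upper 50% of peaks by score, 70 members (33.3%) were marked in knockdown cells and 73 (34.8%) in wild-type cells, against 58.6% and 56.7% with all peaks, so the order turned. It also turned with peaks under 2 kb left out, with 114 and 116.

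The share of knockdown peaks that were shared was 68.4% with lists of equal length, 47.0% when an overlap had to span 50% of each of the peaks and 65.1% at the 92 members. That of wild-type peaks was 77.6% with lists of equal length and 47.7% under the 50% overlap. The difference at the 5′ regions was -8.79% in the upper 50% by score, 3.65% with lists of equal length and 21.3% at the 92 members, so its direction is not settled. Gene bodies had -16.3% with lists of equal length and -12.5% at the 92 members, and the outer flanks -11.4% with lists of equal length. The 3′ regions stayed between -46.9% and -33.4%. The cause of these shifts was not tested. With a cluster gap of 250 kb the knockdown covered less in 20 of 26 clusters. Alternatives for the 4 gene regions, and those without ZNF536, were chosen after the data were seen.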

Other observations

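Some pairs of members shared 1 peak at their 5′ ends. In both lists 1 peak marked ZNF565 and ZNF146, with 2.4 kb in knockdown cells and 2.8 kb in wild-type cells. A further one marked ZNF529 and ZNF382, with 3.6 kb and 4.6 kb. The same held for ZNF581 and ZNF580, with widths of 7.4 kb and 7.8 kb. A knockdown peak of 14.4 kb (12052001 to 12066400) took in the 5′ ends of ZNF878 and ZNF844, which no single wild-type peak did. In all, 121 knockdown peaks marked 123 members.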
